A study of Mus musculus with 32 samples.

Results

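Chemokines are small secreted proteins that draw leukocytes along a concentration gradient, and the 10 chemokine genes described here are Cxcl1, Cxcl2, Cxcl5, Ccl2, Ccl7, Ccl20, Cxcl10, Ccl5, Cxcl12 and Cx3cl1. They were chosen by symbol, and all 10 were found among the 39017 genes of the deposited read count table. RNA-seq libraries had been made from mouse embryonic fibroblasts (MEFs), cultured connective tissue cells, of 4 lines: a wild-type line called wtATM, an ATM knock-out line, a second wild-type line called wtATMIN, and an ATMIN knock-out line. Each line was exposed to 1 µM aphidicolin (APH), which inhibits the replicative DNA polymerases and slows replication forks, or to the solvent DMSO alone, for 4 h or 24 h. Every combination of line, treatment and time was sequenced in 2 samples, giving 16 groups and 32 samples. ATM is the kinase that responds to DNA double-strand breaks, and ATMIN is a protein that interacts with it and that acts in the response to replication stress. With 1 line for each genotype, an effect of the genotype and of the line cannot be told apart, and the labels give neither the knock-out allele nor whether the lines were immortalised. The labels do not say that the 2 samples of a group came from separate cultures, so the p-values measure the spread between these samples, which may be technical. The design asks how the lines respond to replication stress early and late.

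Neutrophil-attracting chemokines of the CXC class (Cxcl1, Cxcl2, Cxcl5) act on the receptor Cxcr2, and Ccl2 and Ccl7 attract monocytes through Ccr2, while Ccl20 attracts lymphocytes and dendritic cells through Ccr6. These 6 genes are textbook targets of the transcription factor NF-kB, which waits in the cytoplasm bound to an inhibitor and induces many of its targets within hours. Cxcl10, which acts on Cxcr3, a receptor of activated T cells, and Ccl5, which attracts T cells and monocytes, are classical products of interferon signalling, a slower route that usually passes through interferon regulatory factors and STAT proteins and to which NF-kB can contribute. Cxcl12 is a constitutive product of connective tissue cells that binds Cxcr4 and the scavenging receptor Ackr3, and Cx3cl1 (fractalkine) is made as a membrane-bound protein that is shed from the cell surface.

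On GRCm38 (GENCODE M21), whose chromosome names and build correspond to the mm10 named in the submitters' processing notes, Cxcl5 (ENSMUSG00000029371, chr5:90759360-90761624), Cxcl1 (ENSMUSG00000029380, chr5:90891241-90893115) and Cxcl2 (ENSMUSG00000058427, chr5:90903871-90905938) lie together on the plus strand of chromosome 5. Cxcl10 (ENSMUSG00000034855, chr5:92346638-92348889) lies on the minus strand of the same chromosome. On chromosome 11, Ccl2 (ENSMUSG00000035385, chr11:82035571-82037453) and Ccl7 (ENSMUSG00000035373, chr11:82045712-82047525) are neighbours on the plus strand, and Ccl5 (ENSMUSG00000035042, chr11:83525778-83530518) is on the minus strand. Ccl20 (ENSMUSG00000026166, chr1:83116766-83119167), Cxcl12 (ENSMUSG00000061353, chr6:117168535-117181367) and Cx3cl1 (ENSMUSG00000031778, chr8:94772009-94782427) each lie apart from the others, on the plus strand.

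Promoter windows of 250 bases before the RefSeq start site (mouse build GRCm38.p6) were found for 6 of the 10 genes, and 4 are printed because they hold, or lack, the motifs by which the NF-kB and interferon classes are usually told apart. Each is written 5′ to 3′ on the strand of its gene, with capitals for matches to the NF-kB (kB) consensus on either strand or to the core of the interferon-stimulated response element.
Cxcl1, chr5:90890995-90891244, plus strand: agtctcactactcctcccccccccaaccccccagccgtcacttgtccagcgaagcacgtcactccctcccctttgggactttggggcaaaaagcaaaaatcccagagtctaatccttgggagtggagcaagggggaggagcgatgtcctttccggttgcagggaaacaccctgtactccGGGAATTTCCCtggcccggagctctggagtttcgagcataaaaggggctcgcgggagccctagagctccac
Ccl20, chr1:83116516-83116765, plus strand: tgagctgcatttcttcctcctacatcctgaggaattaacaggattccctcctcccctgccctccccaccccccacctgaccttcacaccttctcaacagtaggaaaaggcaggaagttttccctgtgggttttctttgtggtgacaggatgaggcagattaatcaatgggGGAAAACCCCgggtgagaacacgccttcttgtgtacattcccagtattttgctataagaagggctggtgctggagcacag
Cxcl10, chr5:92348890-92349139, minus strand: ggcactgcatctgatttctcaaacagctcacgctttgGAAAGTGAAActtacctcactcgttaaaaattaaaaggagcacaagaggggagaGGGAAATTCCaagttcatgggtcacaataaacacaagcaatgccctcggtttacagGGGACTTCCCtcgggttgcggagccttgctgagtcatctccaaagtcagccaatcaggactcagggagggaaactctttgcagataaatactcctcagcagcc
Cxcl12, chr6:117168285-117168534, plus strand: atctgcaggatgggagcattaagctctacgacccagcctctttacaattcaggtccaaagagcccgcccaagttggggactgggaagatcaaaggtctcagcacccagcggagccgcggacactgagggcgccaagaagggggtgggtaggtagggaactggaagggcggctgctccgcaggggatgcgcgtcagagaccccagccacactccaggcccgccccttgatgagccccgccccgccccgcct
The Cxcl1 window held overlapping kB matches on both strands between 71 and 61 bases before the start, and the Cxcl2 window held the same 11 bases between 97 and 87 bases before its start. Ccl20 had 1 kB match, on the opposite strand, between 80 and 71 bases before the start. Cxcl10 carried both classes of motif: kB matches from 159 to 150 and from 103 to 94 bases before the start, and an interferon-stimulated response element core from 213 to 204 bases before it. No match to these motifs, nor to the STAT motif core TTCNNNGAA, was found in the Cxcl12 and Cx3cl1 windows. Among 32851 promoter windows of the same length, 3.9% held a kB match, 2.98% the response element core and 7.02% the STAT motif core. The matches describe letters in these windows and were not tested for binding. For Ccl2, Ccl5, Ccl7 and Cxcl5 no promoter was matched.

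The libraries held 9321329 to 21020662 reads in genes, with a median of 16174639. Fibroblast markers summed to at least 7178 and at most 31717 CPM. CPM are reads per 1000000 reads of the library, scaled with the trimmed mean of M values (TMM). Among these markers Thy1 had a median of 0.31 CPM over the samples. Its highest group mean, 271 CPM, was in the ATM knock-out line at 24 h of APH. The pan-leukocyte marker Ptprc had 9 reads in all 32 samples together, Tyrobp 0 and Adgre1 2. Most of the summed blood cell markers (16.1 to 40.5 CPM) came from Csf1r and Cd14. Lyz2, on the same list, had 1448 reads, with its highest group mean, 16.7 CPM, in wtATM at 24 h of APH. Endothelial markers summed to 0.193 to 2.95 CPM and epithelial markers to 0.253 to 16.4 CPM. Atmin had 3.77 to 6.77 CPM in the ATMIN knock-out line and 20.4 to 32.9 CPM in wtATMIN. In the ATM knock-out line Atm had 17.8 to 45.5 CPM, against 43.1 to 65.1 CPM in wtATM, and because the deleted exons are not stated, this gene-level count may include reads from outside the deletion and does not test that label. Both APH 4 h libraries of the ATM knock-out line stood apart from the rest: in replicate 1 the repeat-bearing gene Gm42418 took 8.31% of reads, and replicate 2 was the shallowest library and had reads in 406 of 1434 olfactory and vomeronasal receptor genes, against 17 to 95 in libraries outside this group. For some results that rest on them, values without replicate 1 or 2 are given below. The other results that use them are given with both libraries only. In bulk RNA, fewer cells making a transcript and less transcript per cell cannot be told apart. Cxcl10 lies over Art3 and Ccl2 over Gm17268, genes on the opposite strand, and the strand setting of the counting is not given in the sources used here. Art3 had 14 reads in all samples and Gm17268 had 0.

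All 10 chemokine genes passed the filter on low counts and were among the 18484 genes tested, but Cxcl2 passed only through wtATMIN APH at 4 h and DMSO at 24 h, and Ccl20 only through APH at 24 h in wtATMIN and the ATMIN knock-out line. A gene was called when the adjusted p of edgeR's quasi-likelihood test, corrected by the Benjamini-Hochberg method over all tested genes of a comparison, was under 0.05. Levels are compared between genes only as RPKM, which divides CPM by the gene's length in kilobases, for which group means ran from 7.66 to 109 for Cxcl12, 8.22 to 50.2 for Cx3cl1, 3.03 to 117 for Ccl2, 1.14 to 162 for Cxcl1, 0.721 to 118 for Cxcl10 and 0 to 171 for Ccl5. Cxcl2 and Ccl20 stayed below 1 RPKM in every group, with highest group means of 0.768 and 0.871. Cxcl12 and Cx3cl1, the constitutive and the membrane-bound chemokine, had the narrowest ranges of CPM over the 16 groups, 14.2-fold and 6.08-fold, against 142-fold for Cxcl1 and 164-fold for Cxcl10.

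**Figure D1:**
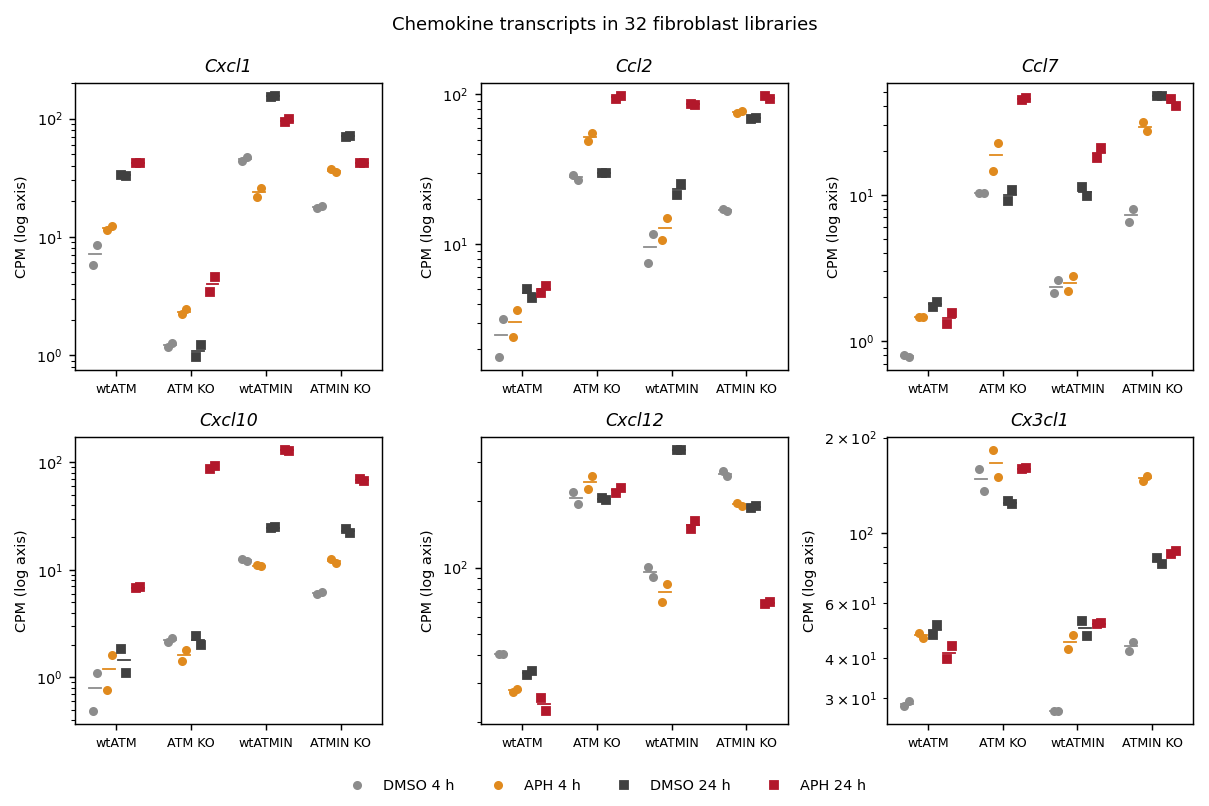
CPM of 6 chemokine genes (log axis) in each of the 32 libraries, by line (KO, knock-out) with treatment and time as colours and shapes. Points are libraries and dashes are means of 2. Cxcl10 at 24 h of APH (red squares) sits above the DMSO libraries of the same line in all 4 lines, while Cxcl1 changes in opposite directions between lines.

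In DMSO alone, the lines differed widely in their chemokine output, and the output moved with time in culture. Of the 10 genes, 8 were called between the 2 wild-type lines in DMSO at 4 h, where 57.2% of all tested genes were called, and 8 at 24 h, with 61.7% called. The 24 h count includes Cxcl2, which passed the filter through wtATMIN DMSO at 24 h. Its call there is not independent of having been tested. Cxcl1 measured 5.77 and 8.49 CPM in the wtATM DMSO samples at 4 h and 43.7 and 47 CPM in those of wtATMIN. Both wtATMIN samples were thus above both wtATM samples, by 2.65 on the log2 scale (standard error, SE, 0.12). Cxcl10 was 3.88 (SE 0.22) and 4.06 (SE 0.16) log2 units higher in wtATMIN at 4 h and 24 h. Cxcl5 had 63.6 and 60.1 CPM in wtATMIN at 24 h and 0.99 and 1.39 CPM in wtATM, a log2 difference of 5.70 (SE 0.19). Cx3cl1 did not differ measurably between these lines, at -0.08 (SE 0.10) and 0.02 (SE 0.09). The knock-out contrasts below may also hold a difference between lines, which cannot be told apart from the genotype.

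Between 4 h and 24 h in DMSO, 8 chemokine genes were called in wtATM, 8 in wtATMIN and 8 in ATMIN knock-out cells, against 46.4%, 55.5% and 47.2% of all genes, whereas 2 were called in the ATM knock-out line, where 48.7% of all genes were. Cxcl1 went from 17.5 and 18.3 to 70.2 and 71.4 CPM in the ATMIN knock-out line, and from 43.7 and 47 to 153 and 156 CPM in wtATMIN. It rose in both lines and in wtATM, by 1.98 (SE 0.10), 1.77 (SE 0.09) and 2.19 (SE 0.12), and in the ATM knock-out line it measured 1.18 and 1.26 CPM at 4 h and 0.959 and 1.22 CPM at 24 h. Ccl2 rose by 2.03 (SE 0.13) in the ATMIN knock-out line and by 1.27 (SE 0.15) in wtATMIN, and Ccl7, its neighbour on chromosome 11, by 2.70 (SE 0.14) and 2.15 (SE 0.19). The corresponding differences in the ATM knock-out line were 0.09 (SE 0.13) for Ccl2 and -0.05 (SE 0.15) for Ccl7, neither called. Cxcl12 rose by 1.84 (SE 0.08) in wtATMIN and fell by 0.50 (SE 0.08) in the ATMIN knock-out line. In wtATM, the calls of Ccl2, Ccl7, Ccl5, Cxcl10 and Cxcl12 were each lost without at least 1 of its DMSO libraries, and of the 2 calls in the ATM knock-out line, Ccl5 at 1.61 (SE 0.35) and Cx3cl1 at -0.25 (SE 0.08), that of Cx3cl1 was lost without DMSO 4 h replicate 1 or 24 h replicate 2. The Cxcl5 call in the ATMIN knock-out line was lost without DMSO 4 h replicate 2 (1.02) or DMSO 24 h replicate 2 (0.77). The share of reads taken by Gm42418 was 1.35% to 8.31% over the libraries of 4 h and 0.0254% to 0.593% over those of 24 h, so time and a difference between sets of libraries cannot be told apart in DMSO. Each 24 h response below is measured against the DMSO samples of 24 h.

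In DMSO the knock-out lines had less of the neutrophil chemokines Cxcl1 and Cxcl5 and more of the monocyte chemokines Ccl2 and Ccl7 than their wild-type lines. In ATM knock-out against wtATM 8 genes were called at 4 h, with 55.2% of all genes called, and 8 at 24 h, with 59.3%. For ATMIN knock-out against wtATMIN the numbers were 9 at 4 h and 8 at 24 h, with 44.9% and 49.6% of all genes. Both include Cxcl2, which passed the filter only through wtATMIN groups, among them DMSO at 24 h. Its calls at 4 h and 24 h are not independent of having been tested, and at 4 h it had 10 reads over both wtATMIN samples and 0 over both knock-out samples. Cxcl1 fell by 2.56 (SE 0.21) at 4 h and by 4.92 (SE 0.16) at 24 h in the ATM knock-out line, where it had the lowest levels of the study, and by 1.34 (SE 0.10) and 1.13 (SE 0.08) in the ATMIN knock-out line. Cxcl5 had 42 reads over both wtATM DMSO samples at 24 h and 1 read over both ATM knock-out samples, a ratio of 38.2 (exact 95% interval 6.5 to 1545, counting error only). At 4 h it had 7 reads in wtATM and 0 in the ATM knock-out line, at least 2.6-fold higher in wtATM against a floor of 3 reads over the group. That 4 h call was lost without wtATM DMSO 4 h replicate 2 or without ATM knock-out DMSO 4 h replicate 1. In the ATMIN pair, Cxcl5 fell by 4.84 (SE 0.28) at 4 h and by 5.88 (SE 0.20) at 24 h. Ccl2 was 3.46 (SE 0.20) and 2.66 (SE 0.16) log2 units higher in the ATM knock-out line at 4 h and 24 h, and 0.81 (SE 0.15) and 1.57 (SE 0.12) higher in the ATMIN knock-out line. Ccl7 and Ccl5 were called higher in both knock-out lines at both times. Cxcl12 was higher in the ATM knock-out line by 2.35 (SE 0.09) and 2.62 (SE 0.09), and in the ATMIN pair it was 1.48 (SE 0.08) higher at 4 h and fell by 0.86 (SE 0.08) at 24 h. The call of Cxcl10 in the ATM pair at 24 h, 0.58 (SE 0.25), was lost in 6 alternative fits, among them those without wtATM DMSO 24 h replicate 2 (0.28) and without ATM knock-out DMSO 24 h replicate 1 (0.44).

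At 4 h, APH moved the chemokine genes in different directions in different lines. Called genes numbered 3 of 10 in wtATM (Cxcl1, Cx3cl1 and Cxcl12), 4 in the ATM knock-out line (Cxcl1, Ccl2, Ccl7 and Cxcl12), 3 in wtATMIN (Cxcl1, Cx3cl1 and Cxcl12) and 7 in the ATMIN knock-out line (Cxcl1, Ccl2, Ccl7, Ccl20, Cxcl10, Cx3cl1 and Cxcl12). Over all tested genes the called shares were 5.58%, 29.4%, 15% and 20.4% in that order. The share in the ATM knock-out line depended on the fit, with 5433 genes called in the model of all samples, 1136 when its 4 samples at 4 h were fitted alone and 2392 without APH 4 h replicate 2.

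Cxcl1, the neutrophil chemokine with the overlapping kB matches, was called at 4 h in every line but not in 1 direction. In the ATMIN knock-out line it went from 17.5 and 18.3 CPM in DMSO to 37.5 and 35.2 CPM in APH, 2.03-fold (log2 1.02, SE 0.10, adjusted p = 7.44e-10). In wtATMIN it went from 43.7 and 47 CPM to 21.6 and 26 CPM, and fell by 0.93 (SE 0.10, adjusted p = 3.96e-09). The groups did not overlap in either line, and the APH samples of wtATMIN at 4 h lay below its DMSO samples whereas those of the knock-out lay above theirs. In wtATM, Cxcl1 measured 5.77 and 8.49 CPM in DMSO and 11.5 and 12.4 CPM in APH (log2 0.72, SE 0.14, adjusted p = 0.000573), a call that was lost without wtATM DMSO 4 h replicate 1 (0.49, adjusted p = 0.0711). Levels in the ATM knock-out line were near 1 CPM, 1.18 and 1.26 in DMSO against 2.22 and 2.45 in APH (log2 0.92, SE 0.29, adjusted p = 0.015), and the call was lost when the 4 samples were fitted alone (adjusted p = 0.122) and in 3 of the 4 fits that left out 1 of them, those without APH replicate 2 (adjusted p = 0.113), DMSO replicate 1 (adjusted p = 0.0729) and DMSO replicate 2 (adjusted p = 0.065). The relatives of Cxcl1 were scarce. Cxcl5, whose product also acts on Cxcr2, was called at 4 h in none of the 4 lines, with values of -0.40 (SE 0.16) in wtATMIN and 0.58 (SE 0.52) in ATMIN knock-out cells. Cxcl2 had 11 and 16 reads in the wtATMIN APH samples at 4 h, 5 and 5 in the DMSO samples, and at most 1 read in any APH or DMSO library of the other lines at 4 h.

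Ccl2 and Ccl7, the monocyte chemokines, rose at 4 h in both knock-out lines and were called in neither wild-type line. In the ATMIN knock-out line Ccl2 went from 17.1 and 16.8 CPM to 75.7 and 77.1 CPM, 4.5-fold (log2 2.17, SE 0.13, adjusted p = 2.36e-14). Ccl7 went from 6.52 and 8.01 CPM to 31.1 and 27.1 CPM (log2 2.00, SE 0.14). The APH and DMSO groups did not overlap for either gene. In the ATM knock-out line Ccl2 went from 29.2 and 26.8 CPM to 48.6 and 55 CPM (log2 0.88, SE 0.13), and Ccl7 from 10.3 and 10.3 CPM to 14.6 and 22.6 CPM (log2 0.82, SE 0.15). The 2 APH replicates of Ccl7 differed more from each other than its DMSO samples did. Without APH 4 h replicate 1, Ccl2 and Ccl7 were at 0.96 and 1.12, without replicate 2 they were at 0.79 and 0.49, and each stayed called. In wtATM Ccl2 had 1.76 and 3.18 CPM in DMSO and 2.42 and 3.64 CPM in APH, and in wtATMIN 7.53 and 11.7 CPM in DMSO and 10.7 and 15 CPM in APH. The Ccl2 groups overlapped in both lines. Ccl7 in wtATM went from 0.802 and 0.778 CPM (10 and 12 reads) to 1.47 and 1.46 CPM (25 and 18 reads), without overlap. Its log2 difference there, 0.89, was not called but was no smaller than that of the ATM knock-out line. In wtATMIN Ccl7 had 2.12 and 2.6 CPM in DMSO and 2.19 and 2.77 CPM in APH, which overlapped. The wtATMIN difference in Ccl2 of 0.41 (SE 0.16, adjusted p = 0.0865) was called by DESeq2 (adjusted p = 0.0444) and in 3 other alternative fits. Ccl20 had 6 and 2 reads in the APH samples of the ATMIN knock-out line and 0 and 0 in its DMSO samples, at least 3.17-fold higher against a floor of 3 reads over the group. Its call rested on these 8 reads and was lost without APH 4 h replicate 1 or either DMSO replicate.

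Cxcl10 and Ccl5, the interferon-inducible chemokines, were called at 4 h in 1 instance, Cxcl10 in the ATMIN knock-out line. There it went from 6.01 and 6.22 CPM to 12.6 and 11.6 CPM (log2 0.99, SE 0.14, adjusted p = 1.01e-06). In the other lines Cxcl10 stood at 0.45 (SE 0.37) in wtATM, -0.49 (SE 0.29) in the ATM knock-out line and -0.17 (SE 0.13) in wtATMIN. Ccl5 measured 12.5 and 14.1 CPM in DMSO and 14.4 and 13.4 CPM in APH in the ATMIN knock-out line, and the groups overlapped. Its differences were 0.07 (SE 0.15) there, -0.56 (SE 0.25) in wtATMIN and 0.98 (SE 0.42, adjusted p = 0.0771) in the ATM knock-out line, where DESeq2 called it (adjusted p = 0.0377). In wtATM it had 3 reads over both DMSO samples and 0 over both APH samples, too few for a fold.

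The remaining pair moved apart from each other at 4 h. Cx3cl1 rose in wtATM from 28.2 and 29.4 CPM to 48 and 46.6 CPM (log2 0.71, SE 0.09), and in wtATMIN from 27.3 and 27.2 CPM to 42.8 and 47.5 CPM (log2 0.73, SE 0.09). In the ATMIN knock-out line it went from 42.1 and 45.2 CPM to 146 and 151 CPM, 3.41-fold (log2 1.77, SE 0.08, adjusted p = 6.02e-18). These 3 lines shared a rise in the membrane-bound chemokine with no overlap between groups. In the ATM knock-out line Cx3cl1 was already at 159 and 136 CPM in DMSO and at 183 and 150 CPM in APH, which overlapped (log2 0.18, SE 0.08, adjusted p = 0.0899). It was called there without APH 4 h replicate 2 (0.31, adjusted p = 0.00814). Cxcl12 fell in wtATM by 0.55 (SE 0.09), in wtATMIN by 0.31 (SE 0.08) and in the ATMIN knock-out line by 0.46 (SE 0.08). Cxcl12 was called higher in the ATM knock-out line, at 0.23 (SE 0.08, adjusted p = 0.0216), but this call was lost without APH 4 h replicate 2 (0.13, adjusted p = 0.335), with scaling to library size alone (adjusted p = 0.143) and in 3 other alternative fits. The wtATMIN call was lost when DMSO 4 h replicate 1 (adjusted p = 0.0935) was left out, and when APH 4 h replicate 1 was (adjusted p = 0.277).

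At 24 h of APH both interferon-inducible chemokines were called higher in all 4 lines. Called chemokine genes numbered 5 in wtATM, 6 in the ATM knock-out line, 8 in wtATMIN and 6 in ATMIN knock-out cells, against 28.7%, 27.9%, 28.8% and 30.2% of all tested genes. The counts of wtATMIN and ATMIN knock-out cells include Ccl20. It passed the filter only through these APH groups, so these counts are not independent of the filter. Cxcl10 in the ATM knock-out line measured 2.4 and 2 CPM in DMSO and 86.7 and 93.1 CPM in APH, 40.7-fold (log2 5.34, SE 0.14, adjusted p = 3.86e-26). In wtATMIN it went from 24.3 and 24.9 CPM to 131 and 128 CPM, the highest level of Cxcl10 in the study (log2 2.40, SE 0.09). The ATMIN knock-out line, with 24 and 22.2 CPM in DMSO, reached 69.4 and 67.6 CPM (log2 1.57, SE 0.10). The DMSO levels of these last 2 lines differed by no more than the spread between replicates (log2 -0.09, SE 0.10, adjusted p = 0.496), while their APH levels did not overlap. In wtATM, Cxcl10 went from 1.82 and 1.1 CPM to 6.71 and 6.97 CPM (log2 2.21, SE 0.20). In order of its APH level at 24 h, wtATMIN was followed by ATM knock-out, ATMIN knock-out and wtATM, with no overlap between neighbours.

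Of 12 blood cell markers 4 were tested, and at 24 h of APH 1 rose and 0 fell in wtATM, 1 went up and 1 down in the ATM knock-out line, 2 up and 0 down in wtATMIN, and 0 up and 0 down in ATMIN knock-out cells by edgeR's test, with 0 of the 4 under an unadjusted p of 0.05 in the last. Over all genes, 28.7%, 27.9%, 28.8% and 30.2% were called in these comparisons. The part of these markers in the Cxcl10 result was not tested.

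Ccl5 followed Cxcl10 in direction, but its highest level lay in another line. In the ATM knock-out line it went from 2.1 and 3.28 CPM to 23.2 and 26.5 CPM (log2 3.21, SE 0.19) and from 8.35 and 8.33 CPM to 38.9 and 40.2 CPM in wtATMIN (log2 2.24, SE 0.14). The ATMIN knock-out line had 61 and 58.1 CPM in DMSO and 90.9 and 91.7 CPM in APH, the highest Ccl5 level and the smallest of the 4 increases (log2 0.62, SE 0.11, adjusted p = 7.74e-05). In wtATM it measured 1.1 and 0.174 CPM in DMSO and 1.93 and 2.6 CPM in APH (log2 1.78, SE 0.37). The wtATM DMSO samples differed more from each other than its APH samples did.

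The NF-kB chemokines did not move as a block at 24 h. Cxcl1 rose in the ATM knock-out line from 0.959 and 1.22 CPM to 3.42 and 4.57 CPM (log2 1.87, SE 0.24) and in wtATM from 33.6 and 32.5 CPM to 41.9 and 42.3 CPM (log2 0.35, SE 0.09, adjusted p = 0.00393). It fell in wtATMIN from 153 and 156 CPM to 93.3 and 98.2 CPM, by 0.69 (SE 0.08), and in the ATMIN knock-out line from 70.2 and 71.4 CPM to 41.9 and 42.1 CPM, by 0.75 (SE 0.09). The ATM pair and the ATMIN pair of lines thus lay on opposite sides of their controls. Cxcl5 fell in wtATMIN, from 63.6 and 60.1 CPM to 43.7 and 41.6 CPM (by 0.54, SE 0.12, adjusted p = 0.000911), and was called in no other line. Ccl2 rose in the ATM knock-out line from 29.9 and 29.7 CPM to 93.3 and 98.2 CPM (log2 1.68, SE 0.12), in wtATMIN from 21.3 and 25.4 CPM to 86.4 and 85.5 CPM (log2 1.89, SE 0.12), and in the ATMIN knock-out line from 68.2 and 70.1 CPM to 97.3 and 93.5 CPM (log2 0.47, SE 0.11). From different starting levels these 3 lines ended between 85.5 and 98.2 CPM, the highest Ccl2 levels measured. In wtATM it remained at 5.06 and 4.36 CPM in DMSO and 4.72 and 5.27 CPM in APH. Ccl7 rose in the ATM knock-out line from 9.11 and 10.8 CPM to 44.6 and 45.4 CPM (log2 2.18, SE 0.13) and in wtATMIN by 0.87 (SE 0.14). In the ATMIN knock-out line it had 46.9 and 47.4 CPM in DMSO and 44.9 and 40.1 CPM in APH (log2 -0.15, SE 0.11, adjusted p = 0.35).

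Ccl20, the chemokine of lymphocytes and dendritic cells, passed the filter only through the APH 24 h groups of the ATMIN pair, so its calls there are not independent of having been tested. It had 2 and 4 reads in the wtATMIN DMSO samples and 32 and 13 in the APH samples, a call that was lost without APH 24 h replicate 1 (adjusted p = 0.0559). In the ATMIN knock-out line it had 1 and 1 reads in DMSO and 14 and 12 in APH, a ratio of 11.7 (exact 95% interval 2.94 to 102). No ATM knock-out library at either time had a Ccl20 read. Cxcl2 was called under APH in none of the lines at 24 h, and had 19 and 13 reads in DMSO and 10 and 12 in APH in wtATMIN, against at most 2 in any library of the other lines. Cxcl12 fell at 24 h in wtATMIN from 342 and 342 CPM to 150 and 163 CPM (by 1.13, SE 0.08), in the ATMIN knock-out line from 186 and 191 CPM to 68.3 and 70.1 CPM (by 1.45, SE 0.08), and in wtATM by 0.47 (SE 0.09). Of 10 fibroblast markers, 0 rose and 6 fell at 24 h in wtATMIN and likewise in the ATMIN knock-out line, with medians of -0.53 and -0.72. Over all genes 28.8% and 30.2% were called. The part of these markers in the Cxcl12 result was not tested. In the ATM knock-out line Cxcl12 had 206 and 202 CPM in DMSO and 218 and 230 CPM in APH (log2 0.13, SE 0.08, adjusted p = 0.205). Cx3cl1 was called higher in the ATM knock-out line (0.36, SE 0.08), and its call in wtATM (-0.24, SE 0.09, adjusted p = 0.0348) was lost with DESeq2 (adjusted p = 0.0851) and in 6 other alternative fits.

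**Figure D2:**
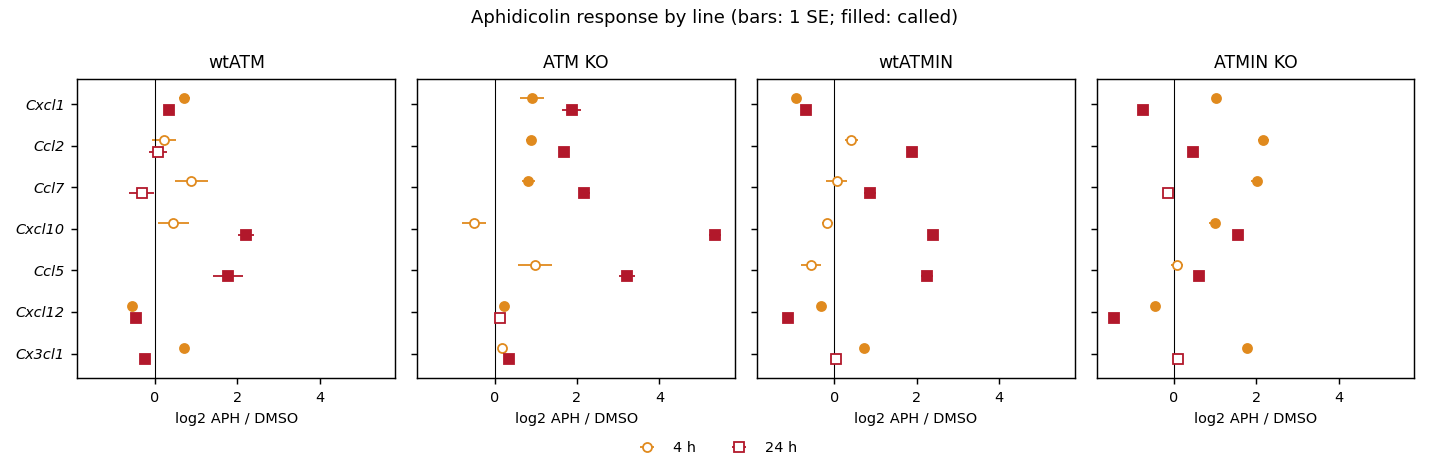
Log2 ratio of APH to DMSO for 7 chemokine genes at 4 h (circles) and 24 h (squares), 1 panel per line on a common axis. Bars are 1 SE from the edgeR fit, and filled symbols are called. Cxcl10 lies furthest right at 24 h in the ATM knock-out line, at 5.34, and Ccl2 and Ccl7 in the ATMIN knock-out line lie further right at 4 h, at 2.17 and 2.00, than at 24 h. Ccl5 at 4 h in wtATM is left out because its APH samples had 0 reads.

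Values of the authors are at hand for APH against DMSO in wtATMIN and for the knock-outs against their wild types. For APH in wtATMIN, the authors' deposited table gives log2 fold changes at 24 h of 2.33 for Cxcl10, 2.07 for Ccl5, 1.81 for Ccl2, 0.78 for Ccl7, -0.68 for Cxcl1 and -1.12 for Cxcl12. At 4 h the authors' deposited table gives -0.83 for Cxcl1, 0.66 for Cx3cl1 and -0.29 for Cxcl12. For ATM knock-out against wtATM in DMSO at 24 h, the authors' deposited table gives 0.52 for Cxcl10 (adjusted p = 0.276) and 1.18 for Ccl5 (adjusted p = 0.107), neither of which passes, while both were called in the edgeR fit.

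The early NF-kB and the late interferon chemokines were compared by subtracting each gene's 4 h response from its 24 h response. The subtraction uses the same samples as the responses above. Chemokine genes called in this difference numbered 2 in wtATM, 4 in the ATM knock-out line, 5 in wtATMIN and 7 in ATMIN knock-out cells, with 15.1%, 22%, 18.6% and 21.1% of all genes called. Cxcl10 responded more at 24 h than at 4 h in all 4 lines, by 1.76 (SE 0.44) in wtATM, 5.84 (SE 0.33) in the ATM knock-out line, 2.56 (SE 0.15) in wtATMIN and 0.58 (SE 0.17) in ATMIN knock-out cells. The wtATM call was lost without DMSO 4 h replicate 2 (0.99, adjusted p = 0.452) and likewise with APH 4 h replicate 1 left out (1.25, adjusted p = 0.0827), and the ATMIN knock-out call (adjusted p = 0.0125) was lost without any of DMSO 4 h replicate 2, APH 4 h replicate 2 or DMSO 24 h replicate 2. Ccl5 responded more at 24 h by 2.23 (SE 0.49) in the ATM knock-out line and 2.80 (SE 0.28) in wtATMIN, and by 0.54 (SE 0.19, adjusted p = 0.0356) in the ATMIN knock-out line, where 7 of the fits that left out 1 library lost the call. In wtATM the difference cannot be sized, since its 4 h APH samples had 0 reads.

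The fold responses of the NF-kB chemokines Ccl2 and Ccl7 took opposite courses in the knock-out lines. In the ATMIN knock-out line their response was larger at 4 h, so that the difference was -1.70 (SE 0.17) for Ccl2, -2.15 (SE 0.18) for Ccl7 and -1.78 (SE 0.13, adjusted p = 2.25e-12) for Cxcl1. Levels in APH did not fall there between 4 h and 24 h. Group means went from 76.4 to 95.4 CPM for Ccl2, 29.1 to 42.5 for Ccl7 and 36.3 to 42 for Cxcl1. The DMSO means rose more, from 17 to 69.1, 7.27 to 47.2 and 17.9 to 70.8 CPM. In the ATM knock-out line the response was larger at 24 h, by 0.80 (SE 0.17) for Ccl2 and 1.36 (SE 0.20) for Ccl7, and in wtATMIN by 1.47 (SE 0.20) for Ccl2. Without ATM knock-out APH 4 h replicate 1 or 2, these values in the ATM knock-out line were 0.73 and 0.89 for Ccl2 and 1.07 and 1.68 for Ccl7, each called. In wtATM the values of -0.14 (SE 0.36) for Ccl2 and -1.21 (SE 0.50) for Ccl7 were not called, and the wtATMIN value of Ccl7, 0.80 (SE 0.29, adjusted p = 0.0513), was called under DESeq2 (adjusted p = 0.0462) and in 5 other alternative fits. Cx3cl1 responded more at 4 h in wtATM (-0.96, SE 0.13), wtATMIN (-0.68, SE 0.13) and the ATMIN knock-out line (-1.68, SE 0.12).

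**Figure D3:**
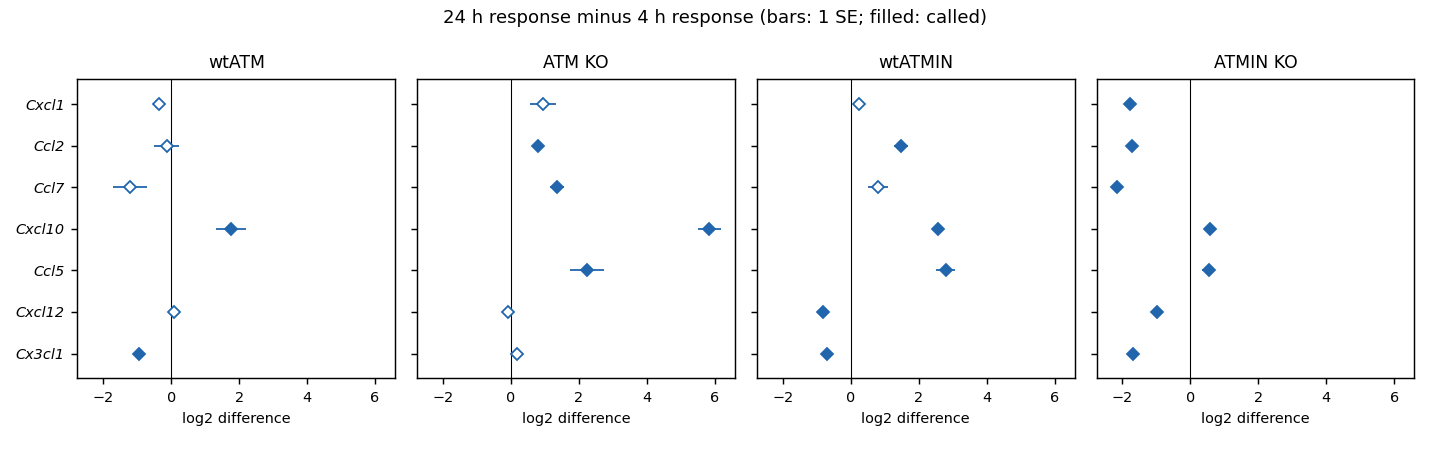
Difference between the 24 h and the 4 h APH response (log2) of 7 chemokine genes, 1 panel per line on a common axis, with bars of 1 SE and filled symbols for called genes. Values to the right mean a larger response at 24 h. Cxcl10 lies right of 0 in all panels, and Cxcl1, Ccl2 and Ccl7 lie left of 0, at -1.78, -1.70 and -2.15, in the ATMIN knock-out line. In that line the APH means of Cxcl1, Ccl2 and Ccl7 were higher at 24 h than at 4 h, and their DMSO means rose more. Ccl5 in wtATM is left out because its APH 4 h samples had 0 reads.

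The last comparison asked whether a knock-out line responded differently from its own wild-type line. At 4 h, 5 of the 10 chemokine genes differed in response between the ATMIN knock-out line and wtATMIN, where 0.671% of all tested genes did. All 5 were higher in the knock-out: Cxcl1 by 1.95 (SE 0.14, adjusted p = 9.63e-12), Ccl7 by 1.94 (SE 0.30, adjusted p = 0.000225), Ccl2 by 1.76 (SE 0.21, adjusted p = 5.62e-06), Cxcl10 by 1.16 (SE 0.19, adjusted p = 0.000318) and Cx3cl1 by 1.04 (SE 0.13, adjusted p = 2.94e-06). At 24 h 4 genes differed, with 2.43% of all genes called, and each was lower in the knock-out. The response fell by 1.63 (SE 0.18) for Ccl5, by 1.42 (SE 0.16) for Ccl2, by 1.02 (SE 0.18) for Ccl7 and by 0.83 (SE 0.13) for Cxcl10. The knock-out DMSO samples at 24 h were above those of wtATMIN for Ccl2, Ccl7 and Ccl5, so a smaller fold started from a higher control level. For Cxcl10 the control levels were alike.

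In the ATM pair, at 4 h, 2 genes differed, Cx3cl1 at -0.53 (SE 0.12) and Cxcl12 at 0.78 (SE 0.12), with 11.4% of all genes called, and neither was called when the 8 samples at 4 h were fitted alone (adjusted p = 0.143 and 0.0793), where 4 of all tested genes were. Without ATM knock-out APH 4 h replicate 1 or 2 the values were -0.71 and -0.41 for Cx3cl1 and 0.86 and 0.69 for Cxcl12, all called. At 24 h 6 genes differed, with 3.92% of all genes called, and each was higher in the ATM knock-out line: Cxcl10 by 3.13 (SE 0.30, adjusted p = 7.79e-09), Ccl7 by 2.49 (SE 0.34), Ccl2 by 1.60 (SE 0.25), Cxcl1 by 1.52 (SE 0.26), Cx3cl1 by 0.61 (SE 0.12) and Cxcl12 by 0.60 (SE 0.12). Ccl5 at 1.43 (SE 0.48, adjusted p = 0.0946) was not called, but DESeq2 called it (adjusted p = 0.0203) as did the fit without wtATM DMSO 24 h replicate 2 (2.19). For the called genes, the ATMIN knock-out response thus exceeded that of wtATMIN at 4 h and was smaller at 24 h. Cxcl1 and Cx3cl1, called at 4 h in the ATMIN pair, were not called at 24 h. In level, the ATMIN knock-out APH samples at 24 h were above those of wtATMIN for Ccl2, Ccl7 and Ccl5, and below for Cxcl10. The ATM knock-out response exceeded that of wtATM at 24 h for its called genes. Whether the 2 knock-out effects differ from each other was not tested.

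**Figure D4:**
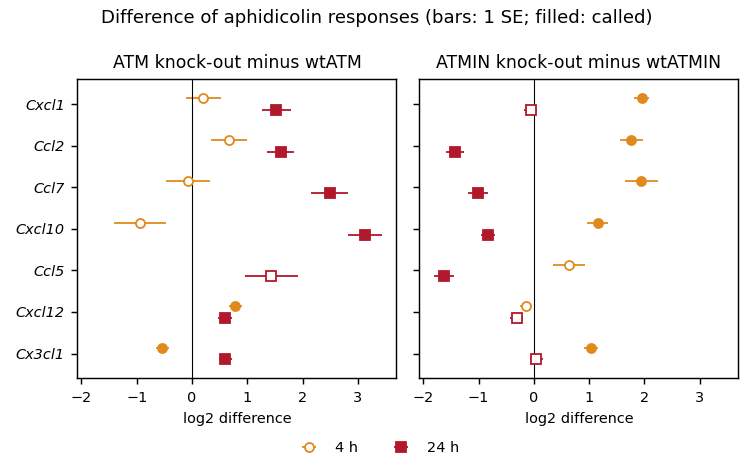
Knock-out response minus wild-type response to APH (log2) of 7 chemokine genes at 4 h (circles) and 24 h (squares), with bars of 1 SE and filled symbols for called genes, on a common axis. In the ATMIN panel Ccl2 lies at 1.76 at 4 h and at -1.42 at 24 h, and in the ATM panel Cxcl10 lies at 3.13 at 24 h. Ccl5 at 4 h in the ATM panel is left out because the wtATM APH samples had 0 reads.

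Genes of the 2 signalling routes were read beside the chemokines. Of 19 NF-kB pathway genes tested, 4 rose and 0 fell at 4 h in wtATM, 6 rose and 1 fell in the ATM knock-out line, 5 and 1 in wtATMIN and 10 and 1 in ATMIN knock-out cells. At 24 h the numbers were 4 and 2, 10 and 1, 12 and 0, and 10 and 3. Over all genes, 5.58%, 29.4%, 15% and 20.4% were called at 4 h, in the same order of lines. At 24 h the shares were 28.7%, 27.9%, 28.8% and 30.2%, and the NF-kB count of wtATM lay near its share. The median log2 response of that list went from 0.13 at 4 h to 0.13 at 24 h in wtATM, from 0.23 to 0.56 in the ATM knock-out line, from 0.08 to 0.34 in wtATMIN and from 0.31 to 0.27 in the ATMIN knock-out line. Nfkbia, the NF-kB inhibitor that NF-kB itself induces, rose at 4 h by 0.39 (SE 0.11) in wtATM, 0.41 (SE 0.10) in wtATMIN and 0.71 (SE 0.09) in ATMIN knock-out cells, and stood at -0.14 (SE 0.10) in the ATM knock-out line. At 24 h Nfkbia rose in every line, by 0.41 (SE 0.10) in wtATM, 1.43 (SE 0.10) in the ATM knock-out line, 0.74 (SE 0.09) in wtATMIN, then 0.33 (SE 0.09) in ATMIN knock-out cells. Tnfaip3, which encodes the feedback inhibitor A20, rose by 1.32 (SE 0.12) in wtATMIN at 24 h and fell by 0.54 (SE 0.10) in wtATM. Of 21 interferon pathway genes tested among 22 listed, 1 rose and 0 fell at 4 h in wtATM, 3 and 1 in the ATM knock-out line, 1 and 5 in wtATMIN and 1 and 4 in ATMIN knock-out cells. At 24 h, 14 rose and 2 fell in wtATM, 14 and 1 in the ATM knock-out line, 13 and 3 in wtATMIN and 13 and 1 in ATMIN knock-out cells. The median log2 response of that list at 24 h was 0.62, 0.56, 0.53 and 0.36 in the same order, beside 0.003, 0.010, 0.000 and 0.000 over all genes. Isg15, a ubiquitin-like interferon product, rose at 24 h by 1.70 (SE 0.18), 1.71 (SE 0.13), 1.62 (SE 0.11) and 0.98 (SE 0.11). At 24 h Ifit3 rose in both lines of the ATM pair, by 1.66 (SE 0.47) and 2.38 (SE 0.18), but fell by 0.45 (SE 0.14) in wtATMIN. Ifnb1, which encodes interferon beta, had 3 reads in all 32 samples.

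The receptors for these chemokines were mostly unread, so far as gene-level counts at this depth show. Of 23 receptor genes listed, 7 were tested. The ligand-matched receptors given here, named for that match and after their reads were seen, had few reads over all samples: 0 for Ccr2, 1 for Ccr6, 4 for Cxcr3, 5 for Cxcr4 and 15 for Cx3cr1. Ackr3, the scavenging receptor of Cxcl12, was the exception, with 19.8 to 88.7 CPM over the groups, and Cxcr2 had 3.86 to 12.1 CPM. Ackr3 fell at 24 h of APH in the 3 lines in which Cxcl12 fell, by 0.40 (SE 0.08) in wtATM, 0.83 (SE 0.08) in wtATMIN and 1.01 (SE 0.09) in ATMIN knock-out cells, and in the ATM knock-out line its log2 ratio was 0.00 (SE 0.10). At 4 h Cxcl12 was called lower in the same 3 lines, but Ackr3 only in wtATMIN (-0.27, SE 0.09). Its 4 h values in wtATM (0.22, SE 0.08) and the ATMIN knock-out line (0.09, SE 0.08) were not called. Of 12 other secreted inflammatory signals 7 were tested, and at 4 h 2 rose and 0 fell in wtATM, 2 and 1 in the ATM knock-out line, 3 and 1 in wtATMIN, then 3 and 0 in ATMIN knock-out cells. At 24 h the numbers were 1 and 1, 2 and 0, 4 and 0, and 2 and 2. The shares of all genes called were 5.58%, 29.4%, 15% and 20.4% at 4 h and 28.7%, 27.9%, 28.8% and 30.2% at 24 h. Lif, an interleukin 6 family cytokine, rose in all 8 APH comparisons, between 0.61 and 2.25, and Ptgs2, the inducible cyclooxygenase, in 7 of them, while Csf1, which encodes a macrophage growth factor, fell in 4 and rose in 1.

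Genes whose levels most resembled those of a chemokine were found by Pearson's r of log2 CPM over the 32 samples, after each line's mean was subtracted, among 13928 genes. These correlations are descriptions over samples that share treatment and time. Ccl2 was most like Ccl7 (r = 0.926), followed by Dennd6a (0.881) and Ripk1 (0.865). Cxcl10 was most like Oasl1 (0.948), an oligoadenylate synthetase-like interferon product, followed by Ghitm (0.925), Tmcc1 (0.921) and Rsad2 (0.919), which encodes the antiviral protein viperin. Cxcl1 was most like Ahr (0.907), the aryl hydrocarbon receptor, and next to it came 4 Ugt1a genes, which share exons and so may share reads. Cxcl12 was most like its own receptor Ackr3 (0.895), followed by the kinase gene Jak1 (0.869).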

How the data were processed

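The 32 libraries were TruSeq version 2 RNA libraries of mouse embryonic fibroblasts, made from 1 µg of RNA each, per the labels' protocols. The submitters' processing notes name Bowtie2 2.4.0, TopHat2 2.0.13, DESeq2 1.6.3 and the build mm10. The counting tool, its strand setting and the annotation release are not given in the sources used here. The deposited table holds raw read counts per Ensembl gene for 39017 genes. The authors also deposited 10 comparison tables, from which their log2 fold changes, their adjusted p-values, gene symbols and gene lengths were used, and 120 columns of per-sample values in them were not used here.

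Samples were grouped by line, treatment and time from the labels. The test was edgeR's (version 4.0.16, R 4.3.3): genes were kept by filterByExpr with a minimum count of 10, libraries were scaled by TMM, and 1 robust quasi-likelihood model over 16 groups gave 26 comparisons, each with Benjamini-Hochberg adjustment over 18484 genes and a threshold of 0.05. CPM are TMM-scaled, and RPKM divide them by the authors' gene lengths. A total of 9321329 to 21020662 reads per library sets the precision, and 95% intervals and floors (3 reads over a group) cover counting error only. The scripts were tested on simulated data. Alternatives were DESeq2's median-ratio size factors (RLE), library size alone, no filter, DESeq2 1.42.0, a replicate block, the compared groups fitted alone and each library left out. All 10 chemokine genes are named, with up to 4 genes per other list by smallest p in an APH comparison and the 5 genes most like Cxcl1, Ccl2, Cxcl10 and Cxcl12. The chemokine genes and the lists were chosen with earlier results of these data known.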

Additional observations from a re-analysis of the deposited data

Results flagged for a closer look

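The differences listed here are those between groups whose own test passed, with edgeR's quasi-likelihood test and adjustment over all genes. They come in 2 sets that share samples with the responses in the report, and no cause was tested for any of them.

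Between times in the same line, the 24 h response minus the 4 h response (log2) differed as follows. For Cxcl10 it was 1.76 in wtATM, 5.84 in the ATM knock-out line, 2.56 in wtATMIN and 0.58 in ATMIN knock-out cells. For Ccl5 it was 2.23 in the ATM knock-out line, 2.80 in wtATMIN and 0.54 in ATMIN knock-out cells. Ccl2 gave 0.80 in the ATM knock-out line and 1.47 in wtATMIN but -1.70 in the ATMIN knock-out line, and Ccl7 gave 1.36 in the ATM knock-out line and -2.15 in the ATMIN knock-out line. Cxcl1 passed in the ATMIN knock-out line alone, at -1.78. Cx3cl1 gave -0.96 in wtATM, -0.68 in wtATMIN and -1.68 in ATMIN knock-out cells. Cxcl12 gave -0.82 in wtATMIN and -0.99 in ATMIN knock-out cells, where it had fallen at both times.

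When a knock-out was set against its own wild type, the APH response at 4 h differed for Cx3cl1 at -0.53 and Cxcl12 at 0.78 in the ATM pair. In the ATMIN pair at 4 h it differed for Cxcl1 at 1.95, Ccl7 at 1.94, Ccl2 at 1.76, Cxcl10 at 1.16 and Cx3cl1 at 1.04. At 24 h it differed in the ATM pair for Cxcl10 at 3.13, Ccl7 at 2.49, Ccl2 at 1.60, Cxcl1 at 1.52, Cx3cl1 at 0.61 and Cxcl12 at 0.60, all higher in the knock-out. In the ATMIN pair at 24 h it differed for Ccl5 at -1.63, Ccl2 at -1.42, Ccl7 at -1.02 and Cxcl10 at -0.83, all lower in the knock-out. Ccl2, Ccl7 and Cxcl10 thus appear with a positive difference at 4 h and a negative one at 24 h in the ATMIN pair.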

How the results depend on the processing

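No value that was called in the main fit or in an alternative changed direction between them. Signs of values called in neither were not compared. Of 260 values, DESeq2 gave 225 and the compared groups alone 211. The number of called chemokine genes moved by over 1.5 times in these cases. For APH against DMSO at 4 h in the ATM knock-out line it was 2 with the compared groups alone and 2 to 4 with 1 library left out, against 4. For the difference between the ATM knock-out and wtATM responses at 4 h it was 0 with the compared groups alone, against 2 in the model of all samples and 2 by DESeq2. With 1 library left out it ranged from 1 to 3 for the late minus early difference in wtATM, 5 to 8 for DMSO time in wtATM and 1 to 2 for DMSO time in the ATM knock-out line. The replicate numbers did not pair the samples (correlations of deviations -0.161 to 0.152), and with the replicate block all 260 values kept their side of the threshold, with 4 genes called at 4 h in the ATM knock-out line as before. Over all genes, fitting the compared groups alone changed the calls from 5433 to 1136 for APH at 4 h and from 4058 to 1817 for late minus early in the ATM knock-out line, from 2101 to 4 for the ATM difference at 4 h and from 450 to 1514 for the ATMIN difference at 24 h. Without the filter the ATMIN difference at 4 h had 225 in place of 124. With 1 library left out, these 5 ranged over 2392 to 6786, 2658 to 5649, 568 to 4813, 219 to 319 and 54 to 156. Leaving out 1 library also gave 528 to 690 in place of 1032 in wtATM, 1408 to 2722 in place of 2773 in wtATMIN and 2270 to 2604 in place of 3768 in the ATMIN knock-out line at 4 h, 3346 to 3566 in place of 5160 in the ATM knock-out line at 24 h, and 366 to 728 in place of 724 for the ATM difference at 24 h. Scaling by library size alone moved the split of all calls towards higher genes at 24 h (3438 of 5338 in wtATMIN, 3611 of 5522 in the ATMIN knock-out line) and towards lower genes for the ATM difference at 4 h (553 higher of 2844). The causes were not tested. Depth limits Cxcl2, Ccl20 and, in wtATM, Ccl5, which had few reads.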

Other observations

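Ppbp and Cxcl15, further chemokine ligands of the neutrophil-attracting kind, had their highest group means in wtATMIN. Ppbp, a platelet-type relative of Cxcl1, reached a group mean of 193 CPM in wtATMIN DMSO at 24 h and 0 CPM in the ATM knock-out DMSO samples at 4 h. Under APH it rose at 4 h in wtATM (log2 0.69, SE 0.14) and the ATMIN knock-out line (1.44, SE 0.23), rose at 24 h in wtATM (0.67, SE 0.10) and fell at 24 h in wtATMIN by 0.71 (SE 0.10). Cxcl15 had its highest group mean, 89.8 CPM, in the same wtATMIN DMSO group, and fell there under APH by 1.58 (SE 0.43) at 4 h and by 1.31 (SE 0.12) at 24 h. Of the 26 further ligands listed, 13 were tested, and at 24 h of APH 3 rose and 0 fell in wtATM, 2 went up and 0 down in the ATM knock-out line, 3 up and 2 down in wtATMIN, and 0 up and 0 down in ATMIN knock-out cells by edgeR's test, with 0 of the 13 under an unadjusted p of 0.05 in the last. Over all genes, 28.7%, 27.9%, 28.8% and 30.2% were called in these comparisons.

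Ccl9, a monocyte and osteoclast chemokine, rose at 24 h of APH in wtATM (0.83, SE 0.18), the ATM knock-out line (1.62, SE 0.40) and wtATMIN (1.32, SE 0.19), and in the ATMIN knock-out line its log2 ratio was -0.07 (SE 0.20). Ccl4, a relative of Ccl5, had 132 reads in all samples, and its highest group mean, 4.05 CPM, was in the ATM knock-out line at 24 h of APH. Among other secreted signals, Ptgs2 rose by 1.01 to 1.58 in the 4 lines at 4 h (SE 0.08 in each), while at 24 h in wtATM it stood at 0.08 (SE 0.08).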
